A study of Homo sapiens with 4 samples.

Results

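Fc receptors and the immunoreceptors that signal through ITAM or ITIM motifs were examined in MV4-11 cells upon *CEBPG* knockdown. The set holds 10 genes defined by name, with earlier results of these data known: *FCGR1A*, *FCGR2A*, *FCGR2B*, *FCGRT*, *FCER1G*, *TYROBP*, *LILRB1*, *LILRB2*, *LILRB4* and *PILRA*. All 10 were among the 16490 genes with a value in the deposited table, on 27 of its 28780 RefSeq rows, of which 24 had values. MV4-11 is an established human acute myeloid leukemia (AML) line that carries a KMT2A fusion and an internal tandem duplication in FLT3. The control group (sh-NC, 2 libraries) carried a control hairpin, and the knockdown group (sh-CEBPG#3, 2 libraries) carried hairpin 3 against *CEBPG*. According to the study's methods, hairpins against *CEBPG* were delivered in a lentiviral puromycin vector and stable cells were selected with puromycin. The vector of the control hairpin is not given there. The study also reports RNA-seq of NB4 cells upon *CEBPG* knockdown, which is not used here. The libraries used here hold a single hairpin in a single line. In them, what this hairpin does by itself and what loss of CEBPG does cannot be told apart. Whether same-group libraries stem from independent infections is not given in the sources used here, so p-values measure the spread between these libraries, which may be technical.

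Fc receptors bind the constant part of antibodies. Activating receptors signal through an immunoreceptor tyrosine-based activation motif (ITAM), which Src-family kinases phosphorylate and to which the kinase SYK then binds. Some carry the ITAM in their own tail, and others borrow it from the small adaptors FCER1G (the Fc receptor gamma chain) and TYROBP (DAP12). Inhibitory receptors carry an immunoreceptor tyrosine-based inhibitory motif (ITIM) instead, which recruits the phosphatases SHP-1 (*PTPN6*), SHP-2 (*PTPN11*) and SHIP1 (*INPP5D*). In monocytes and macrophages this balance sets the threshold for phagocytosis and cytokine release.

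The motifs after which the group is named are shown here, although a search for their letters alone did not separate activating from inhibitory members. The coding sequence of the canonical GENCODE transcript of each gene (GRCh38) was searched for a tyrosine codon followed 3 codons later by a leucine or isoleucine codon, and for a second such unit 6 to 12 codons further on (ITAM). It was also searched for an isoleucine, leucine, valine or serine codon, a tyrosine codon 2 codons on, and a leucine, valine or isoleucine codon 3 codons after that (ITIM). The ITAM search matched *FCER1G* (chr1:161218718-161218919, plus strand, exons 4 and 5, codons 65 to 79 of 86), *TYROBP* (chr19:35904596-35907223, minus strand, exons 4 and 5, codons 91 to 105 of 113) and *FCGR2A* (chr1:161518056-161518115, plus strand, exon 7, codons 288 to 307 of 317). Capitals mark the tyrosine codons and the leucine codons that close each unit.
FCER1G: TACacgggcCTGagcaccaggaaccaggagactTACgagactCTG
TYROBP: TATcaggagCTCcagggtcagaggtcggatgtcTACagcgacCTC
FCGR2A: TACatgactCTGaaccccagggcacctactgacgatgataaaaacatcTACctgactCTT

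The ITIM search matched the tails of the inhibitory receptors. *FCGR2B* had 1 match (chr1:161677488-161677505, plus strand, exon 8, codons 290 to 295 of 310), as did *PILRA* (chr7:100399794-100399811, plus strand, exon 7, codons 267 to 272 of 303). *LILRB4* and *LILRB1* had 3 matches each and *LILRB2* had 2, and in all 3 genes the last match ended 3 codons before the end of the coding sequence. For *LILRB4* that match lay at chr19:54667990-54668007 (plus strand, exon 12). Capitals mark the 3 codons that the search fixed. The same letters also matched *FCGR1A* at 3 places and *FCGRT*, *FCER1G* and *TYROBP* at 1 place each. The match in *TYROBP* overlaps its ITAM, and nothing is drawn from these 6 matches.
FCGR2B: ATCaccTATtcacttCTC
PILRA: ATCgtcTATgcttccCTT
LILRB4: AGTgtcTATgccactCTG

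FPKM (fragments scaled to exon length and to mapped reads) totals lay between 364353 and 389766 per library. The read depth is unknown, since FPKM values carry no counts. Rows of a gene were summed and log2(FPKM + 1) was compared with limma over the 12142 genes averaging 0.5 FPKM or more, a scale on which fold changes of low genes are understated. Genes were called at a Benjamini-Hochberg adjusted p under 0.05. *CEBPG* itself had 30.4 and 33.6 FPKM in sh-NC cells and 19.2 and 17.1 FPKM in sh-CEBPG#3 cells, which is -0.78 on the log2 scale (SE 0.09, adjusted p = 8.88e-05 by limma), so 0.568 of the control level was left. Of 12 myelomonocytic identity genes, 11 averaged 0.5 FPKM or more, with *FLT3* at 62.8 to 75.0 FPKM, *CD33* at 26.8 to 37.2 FPKM and *SPI1* at 114 to 157 FPKM, whereas *KIT* had at most 0.187 FPKM. Of these 11 genes, 6 rose and 3 fell, while 18.5% of all genes tested rose and 23.8% fell. *LYZ* (lysozyme) rose from 567 and 610 FPKM to 3126 and 2982 FPKM (log2 fold change 2.37, adjusted p = 1.40e-08 in limma) and *CSF1R* by 0.80 on the log2 scale, while *MEIS1* fell (-0.87). The part of these genes in the changes of the receptors was not tested. Of 16 markers of T, NK, erythroid, platelet, mast and epithelial cells, 12 were not listed, and of the rest *NKG7* (42.2 to 55.8 FPKM) and *NCAM1* (11.3 to 15.1 FPKM) were the highest. Of 6 B cell markers, 2 were not listed and *PAX5* was highest, at 1.32 to 2.21 FPKM. In bulk RNA a change in the share of cells that express a gene and a change in RNA per cell cannot be told apart.

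Of the 10 genes, 6 rose upon *CEBPG* knockdown (*FCER1G*, *PILRA*, *TYROBP*, *FCGRT*, *LILRB4* and *FCGR1A*) and none fell at an adjusted p under 0.05 in limma, while 18.5% of all genes tested rose and 23.8% fell. The 6 include both ITAM adaptors, the neonatal Fc receptor, the high-affinity IgG receptor and 2 ITIM receptors. The low-affinity IgG receptors *FCGR2A* and *FCGR2B* did not pass, and *LILRB1* and *LILRB2* were too low to test. The 8 genes tested had a mean above 0.5 FPKM in each group. The study's threshold, an unadjusted p under 0.05 and a change of over 2-fold, was also applied to the limma fit. By it *FCER1G*, *PILRA* and *TYROBP* were higher (3 of 10, against 2.36% of all genes tested) and none was lower (against 1.05%). The study applied this threshold to DESeq2 results, so these are not the study's own calls. In 7 of the 8 genes both sh-CEBPG#3 libraries lay above both sh-NC libraries, which held for 31.5% of all genes tested, and in *FCGR2B* both lay below, which held for 40.2% of all genes tested. An exact permutation test of 2 against 2 libraries reaches no p below 0.333, and the p-values therefore lean on the variance that limma pools from other genes.

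**Figure D1:**
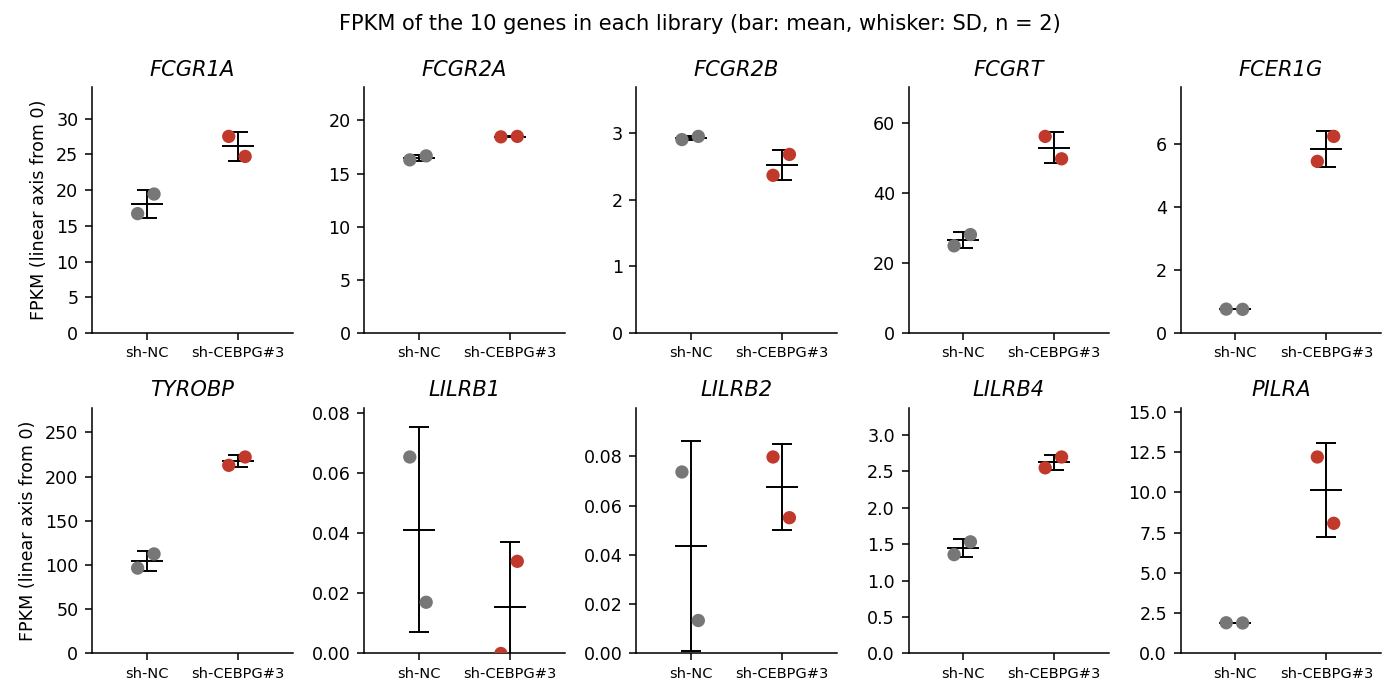
FPKM of each of the 10 genes (vertical axes linear and starting at 0, scaled per gene) in the 2 sh-NC libraries (grey points) and the 2 sh-CEBPG#3 libraries (red points), with the mean and SD of each group in black. The groups stand apart in 8 genes, and *LILRB1* and *LILRB2* reach at most 0.0797 FPKM in any library.

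The ITAM adaptors were the member with the largest change and the member with the highest level. *FCER1G* (RefSeq row NM_004106; chr1:161215295-161219245, plus strand) had 0.757 and 0.750 FPKM in sh-NC cells and 5.46 and 6.26 FPKM in sh-CEBPG#3 cells. Libraries of a group lay close together, and the lower knockdown library was well above both controls. The means were 0.753 ± 0.00506 and 5.86 ± 0.562 FPKM (SD, n = 2 each), a ratio of 7.78, and the log2 fold change was 1.97 (SE 0.11, adjusted p = 1.10e-06 in limma). The gene moved from the 30.0 to 30.3 percentile of all genes with a value in sh-NC cells to the 56.5 and 60.5 percentile in sh-CEBPG#3 cells. A smaller pseudocount of 0.01 moved its log2 fold change to 2.94, which shows how far the pseudocount of 1 holds down a gene at this level.

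*TYROBP* (chr19:35904403-35908295, minus strand), the adaptor of TREM and SIRP-beta receptors in myeloid cells, had 96.5 and 113 FPKM in sh-NC cells and 213 and 222 FPKM in sh-CEBPG#3 cells. Its level was already at the 97.2 and 97.4 percentile of all genes in the control libraries, and the groups did not overlap. The means were 105 ± 11.3 and 217 ± 6.66 FPKM (SD, n = 2 each), a ratio of 2.08, with a log2 fold change of 1.05 (SE 0.08, adjusted p = 8.97e-06 in limma). Of its 5 RefSeq rows, NM_003332 carried 85.4% and 85.7% of the gene's FPKM in the sh-NC libraries and rose from a mean of 89.4 to 191 FPKM. The log2 fold change fell to 0.94 without sh-NC replicate 1 and to 0.95 with quantile normalization, under the study's 2-fold threshold, and the adjusted p passed in both.

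Per length, *TYROBP* was 127 and 150 times as high as *FCER1G* in the sh-NC libraries and 38.9 and 35.5 times as high in the sh-CEBPG#3 libraries. The 2 adaptors thus stood closer together in the knockdown, although *TYROBP* gave 59.8% to 66.3% of the summed FPKM of the 10 genes in every library. That sum was 161 and 184 FPKM in sh-NC cells and 337 and 335 FPKM in sh-CEBPG#3 cells.

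*FCGR1A* encodes CD64, the high-affinity IgG receptor of monocytes, which signals through FCER1G. It is listed as 1 RefSeq row (NM_000566; chr1:149782694-149791675, plus strand) and had 16.7 and 19.5 FPKM in sh-NC cells and 27.5 and 24.7 FPKM in sh-CEBPG#3 cells. The means were 18.1 ± 1.94 and 26.1 ± 1.99 FPKM (SD, n = 2 each), and the gap between the groups was larger than the spread within either. The log2 fold change was 0.51 (SE 0.09, adjusted p = 0.00186 in limma), smaller than that of its adaptor. It lost the call in the fit over single RefSeq rows (adjusted p = 0.0692 in limma), with the same log2 fold change of 0.51, since *FCGR1A* has a single row and only the spread and the adjustment of that fit differ.

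The CD64 locus has near-identical copies, and 63.8% of the 50-base windows of the *FCGR1A* transcript also occur in *FCGR1B* (FCGR1BP in GENCODE) and 57.6% in *FCGR1CP*. How the authors' counting split reads between them is not given in the sources used here. *FCGR1B* rose too (log2 fold change 0.62, adjusted p = 0.000875 in limma), as did *FCGR1CP* (0.99, adjusted p = 8.31e-05). The 3 genes together had 25.1 and 27.0 FPKM in sh-NC cells and 43.6 and 39.8 FPKM in sh-CEBPG#3 cells, so the rise was seen in the sum as well. The transcript also shares 102 bases with exons of *H2BC18* on the other strand, and whether the counting used strand is not stated.

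Neither low-affinity IgG receptor passed the test. *FCGR2A* (CD32a), which carries its own ITAM, had 16.3 and 16.7 FPKM in sh-NC cells and 18.5 and 18.5 FPKM in sh-CEBPG#3 cells. Although the groups did not overlap, the ratio of the means was 1.12 and the log2 fold change of 0.16 (95% interval -0.02 to 0.33) did not pass (adjusted p = 0.129 in limma). With quantile normalization the log2 fold change was 0.18 and passed (adjusted p = 0.0302 in limma). In the canonical transcript, 32.7% of the bases lie in exons of a further GENCODE gene on the same strand.

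*FCGR2B* (CD32b), the inhibitory receptor for IgG complexes, had 2.91 and 2.96 FPKM in sh-NC cells and 2.37 and 2.69 FPKM in sh-CEBPG#3 cells. Its log2 fold change was -0.16 (95% interval -0.40 to 0.08, adjusted p = 0.266 in limma). The gene thus stood just under its controls, by less than the test could tell from the spread. *FCGR2B* shares 33.2% of its 50-base windows with *FCGR2C*, which had 7.87 and 6.98 FPKM in sh-NC cells and 5.63 and 6.63 FPKM in sh-CEBPG#3 cells (log2 fold change -0.24, adjusted p = 0.0873 in limma). The sum of *FCGR2A*, *FCGR2B* and *FCGR2C* lay between 26.5 and 27.8 FPKM in all 4 libraries, and its groups overlapped. The ratio of activating *FCGR2A* to inhibitory *FCGR2B* was 5.60 and 5.64 in sh-NC cells and 7.79 and 6.89 in sh-CEBPG#3 cells.

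Beneath the near-level sum, the RefSeq rows of *FCGR2B* were split differently between the groups. Row NM_001002274 had 0.115 and 0 FPKM in sh-NC cells and 1.56 and 1.22 FPKM in sh-CEBPG#3 cells (log2 fold change 1.17, adjusted p = 0.0499 in limma over single rows). Row NM_001002275 had 0.744 and 1.32 FPKM in sh-NC cells and 0.0176 and 0.175 FPKM in sh-CEBPG#3 cells (log2 fold change -0.88, adjusted p = 0.113 in limma). Row NM_004001 carried 70.5% and 55.2% of the gene in sh-NC cells and 32.9% and 44.6% in sh-CEBPG#3 cells. These rows share most of their exons and lie at low FPKM, and shares between them are estimates of the authors' program.

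*FCGRT* encodes the heavy chain of the neonatal Fc receptor FcRn, which returns IgG and albumin from endosomes to the surface and carries no role in ITAM signalling. It had 24.9 and 28.1 FPKM in sh-NC cells and 56.1 and 49.7 FPKM in sh-CEBPG#3 cells, with no overlap. The means were 26.5 ± 2.27 and 52.9 ± 4.53 FPKM (SD, n = 2 each), a ratio of 2.00, and the log2 fold change was 0.97 (SE 0.09, adjusted p = 2.29e-05 in limma). It lay just under the 2-fold line and was at 0.89 to 1.06 with each library left out. Both of its rows were higher, NM_004107 with a mean of 18.9 against 37.3 FPKM and NM_001136019 with 7.53 against 15.7 FPKM, although neither row passed by itself (adjusted p = 0.0779 and adjusted p = 0.122 in limma).

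FcRn needs beta-2-microglobulin, and *B2M* rose from 283 and 298 FPKM to 652 and 632 FPKM (log2 fold change 1.14, adjusted p = 1.41e-06 in limma). The classical and non-classical HLA class I chains, which share *B2M* and are ligands of LILRB1 and LILRB2, were also measured. All 4 tested genes of that list were higher, while 18.5% of all genes tested rose and 23.8% fell. *HLA-B* changed by 0.95 and *HLA-C* by 0.71 on the log2 scale.

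Among the ITIM receptors, *PILRA* (paired immunoglobulin-like type 2 receptor alpha; chr7:100373487-100400096, plus strand) changed most. It had 1.91 and 1.89 FPKM in sh-NC cells and 12.2 and 8.08 FPKM in sh-CEBPG#3 cells. Relative to their mean, the knockdown libraries differed from each other by more than in any other tested member, and both were far above the controls. The means were 1.90 ± 0.00992 and 10.1 ± 2.91 FPKM (SD, n = 2 each), a ratio of 5.34, with a log2 fold change of 1.92 (SE 0.15, adjusted p = 9.22e-06 in limma). Of its canonical transcript, 9.13% lies in exons of 2 further GENCODE genes on the same strand. Leaving out a library moved the change from 1.65 to 2.19 on the log2 scale.

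The rise of *PILRA* came from 2 RefSeq rows. Row NM_013439 was the whole of the gene in sh-NC cells (1.91 and 1.89 FPKM) and had 6.20 and 4.94 FPKM in sh-CEBPG#3 cells, which is 1.17 on the log2 scale (adjusted p = 0.0316, limma over rows). Row NM_178272 is listed at 0 in both sh-NC libraries and had 6.01 and 3.15 FPKM in sh-CEBPG#3 cells (adjusted p = 0.0296 in limma over rows), which was 49.2% and 39.0% of the gene. *PILRB*, the activating partner of PILRA that pairs with TYROBP, had 1.66 and 0.806 FPKM in sh-NC cells and 1.15 and 0.644 FPKM in sh-CEBPG#3 cells, with overlapping groups (log2 fold change -0.22, adjusted p = 0.394 in limma).

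**Figure D2:**
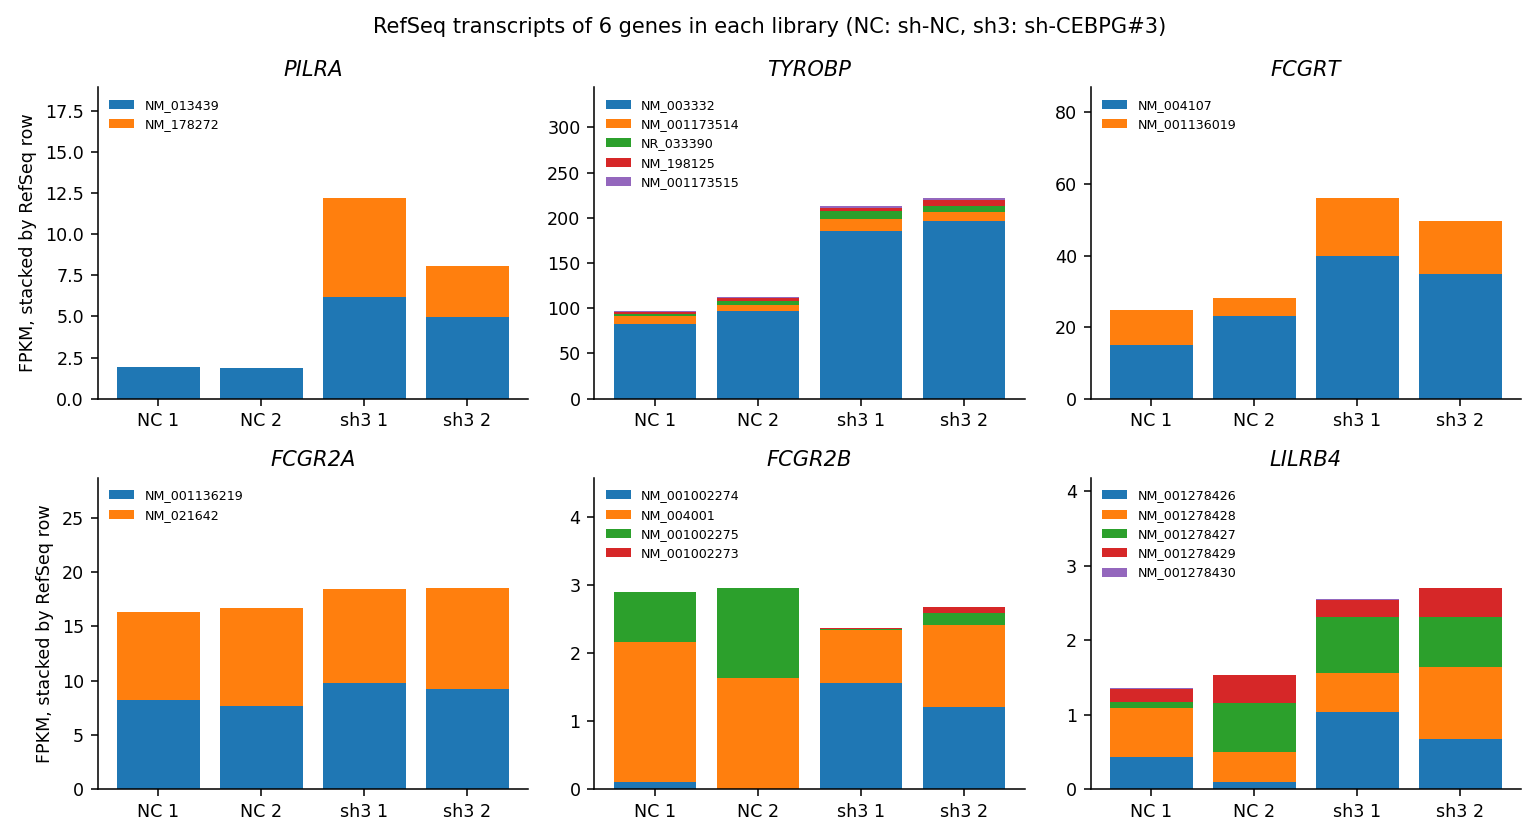
FPKM of each RefSeq row (stacked bars, linear axes from 0) of 6 genes in the sh-NC (NC) and sh-CEBPG#3 (sh3) libraries. NM_178272 of *PILRA* is present in the sh-CEBPG#3 bars alone, and the rows of *FCGR2B* change places while the bars differ little in height.

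The leukocyte immunoglobulin-like receptors were low. *LILRB4*, an inhibitory receptor of monocytic cells, had 1.36 and 1.53 FPKM in sh-NC cells and 2.55 and 2.70 FPKM in sh-CEBPG#3 cells. The groups stood apart, with a ratio of means of 1.82 and a log2 fold change of 0.57 (SE 0.11, adjusted p = 0.00304 in limma). Its 5 rows each had at most 1.04 FPKM, none passed by itself, and NM_001278428, the row with the highest mean over the libraries, differed by 0.18 on the log2 scale (adjusted p = 0.679, limma over rows). The call therefore rests on the sum over rows.

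*LILRB1*, which binds HLA class I, had 0.0653 and 0.0170 FPKM in sh-NC cells and 0 and 0.0306 FPKM in sh-CEBPG#3 cells. *LILRB2* had 0.0736 and 0.0134 FPKM in sh-NC cells and 0.0797 and 0.0551 FPKM in sh-CEBPG#3 cells. In both genes the groups overlapped, all values lay under the filter of 0.5 FPKM, and no fold change is given. Of the 3 rows of *LILRB1* and the 2 rows of *LILRB2*, 1 each had values.

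**Figure D3:**
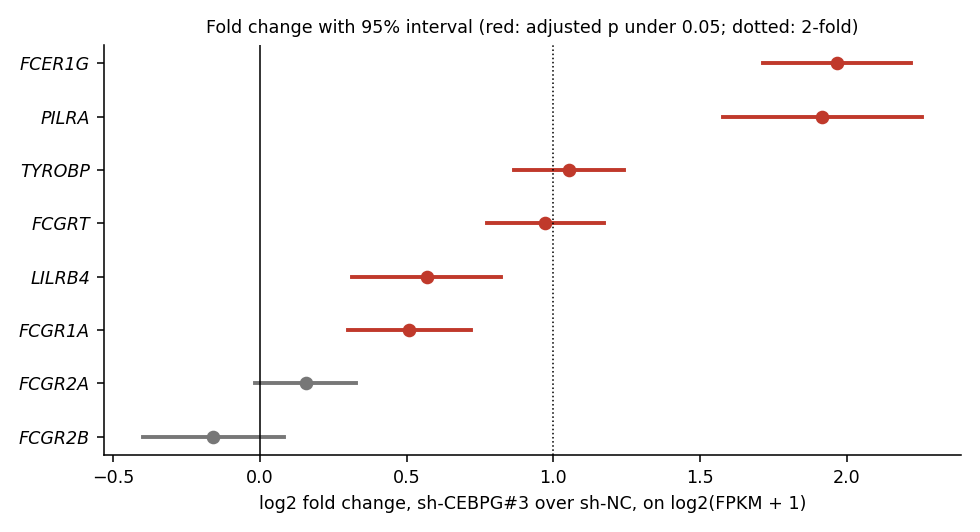
Log2 fold change (sh-CEBPG#3 over sh-NC, on the log2(FPKM + 1) scale) of the 8 tested genes, with limma's 95% interval, red where the adjusted p was under 0.05. *FCER1G* at 1.97 and *PILRA* at 1.92 lie highest, and the intervals of *FCGR2A* and *FCGR2B* hold 0.

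The order of the levels changed between the groups. In sh-NC cells it ran *TYROBP*, *FCGRT*, *FCGR1A*, *FCGR2A*, *FCGR2B*, *PILRA*, *LILRB4* and *FCER1G*. *FCGR1A* and *FCGR2A* were neighbours whose means differed by less than the SD of *FCGR1A*. In sh-CEBPG#3 cells *PILRA* stood above *FCGR2B*, and *FCER1G* above both *FCGR2B* and *LILRB4*. There *LILRB4* and *FCGR2B* did not differ from each other beyond their spread (2.62 ± 0.105 and 2.53 ± 0.223 FPKM, SD, n = 2 each).

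The promoters of 4 members are shown because interferon-stimulated genes moved with the knockdown and *FCGR1A* is a textbook target of interferon gamma through a gamma-activated sequence (GAS). Of the 16 interferon-stimulated genes listed, 15 were tested and all 15 rose, while 18.5% of all genes tested rose and 23.8% fell. The largest rises were those of *IFI6* (log2 fold change 6.47), *CXCL10* (5.54) and *OAS2* (4.43). The summed level of the interferon-stimulated genes was 41.6 and 45.5 FPKM in sh-NC cells and 820 and 795 FPKM in sh-CEBPG#3 cells. Their part in the rise of the receptors was not tested. RefSeq promoters (GRCh38.p14, 250 bases before to 50 after a start) were found for 9 of the 10 genes, as 14 promoters. They were searched on both strands for GAS (TTCNNNGAA), an interferon response element (GAAANNGAAA), a C/EBP site (TTNNGCAA), a C/EBP-ATF site (TGATGNAAT) and a PU.1 core (GAGGAA). GAS occurred in 3 of the 14 promoters, in *FCGR1A*, *FCGR2B* and *LILRB2*, and in 7.66% of all 35116 promoters. The 150 bases before the start are printed for *FCGR1A* (chr1:149782544-149782693, plus strand), *FCGR2B* (chr1:161662993-161663142, plus strand), *FCER1G* (chr1:161215145-161215294, plus strand) and *TYROBP* (chr19:35908296-35908445, minus strand), with GAS matches in capitals.
FCGR1A: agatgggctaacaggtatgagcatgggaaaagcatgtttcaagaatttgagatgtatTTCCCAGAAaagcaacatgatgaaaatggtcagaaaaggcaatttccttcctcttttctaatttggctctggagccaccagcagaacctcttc
FCGR2B: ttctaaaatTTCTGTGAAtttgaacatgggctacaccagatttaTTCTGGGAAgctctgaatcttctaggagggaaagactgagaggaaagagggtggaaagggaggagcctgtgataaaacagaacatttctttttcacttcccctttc
FCER1G: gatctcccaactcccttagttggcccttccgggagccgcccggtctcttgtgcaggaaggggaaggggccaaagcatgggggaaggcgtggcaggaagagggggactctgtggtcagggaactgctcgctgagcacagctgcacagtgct
TYROBP: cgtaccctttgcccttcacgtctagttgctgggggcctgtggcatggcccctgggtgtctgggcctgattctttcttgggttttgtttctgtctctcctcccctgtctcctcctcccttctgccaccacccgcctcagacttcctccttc

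*FCGR1A*, which rose, has a GAS match that begins 93 bases before its start. *FCGR2B*, which did not pass, has matches at 141 and 106 bases, and it is the member with a match to the interferon response element (3.57% of all promoters). *FCER1G* and *TYROBP*, which rose, hold no GAS match in this window. The PU.1 core occurred in 7 of the 14 promoters, each of a different gene, and in 27.9% of all promoters, whereas the C/EBP site (10.5% of all promoters) and the C/EBP-ATF site (0.991%) occurred in none. These matches are letters in a window and not measured sites.

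The remaining Fc receptors were read from a fixed list of 23 genes, of which 17 were listed and 6 tested. Of these 4 rose (*FCER2*, *TRIM21*, *FCGR1B* and *FCGR1CP*) and none fell, with a median log2 fold change of 0.69. *FCGR1B* and *FCGR1CP* are the near-identical copies of *FCGR1A* described above, so their calls may draw on reads of that gene. The background for this list and each further list is that 18.5% of all genes tested rose and 23.8% fell. *FCER2* (CD23, the low-affinity IgE receptor) had 12.9 and 14.8 FPKM in sh-NC cells and 101 and 99.2 FPKM in sh-CEBPG#3 cells, a change of 2.77 on the log2 scale (adjusted p = 1.25e-08 in limma). With the pseudocount of 1 this was larger than for any of the 10 genes, but the order depends on the scale. *FCER2* and *FCER1G* had 2.85 and 2.80 at a pseudocount of 0.1, 2.86 and 2.94 at 0.01, and ratios of means of 7.23 and 7.78. *TRIM21*, a cytosolic Fc receptor, rose by 0.76 on the log2 scale (adjusted p = 8.52e-05). *FCGR3A*, the CD16 receptor, is listed at 0 in both sh-NC libraries and had 0.243 and 0.173 FPKM in the others, under the filter. *FCGR3A*, *FCGR1B*, *FCGR2C* and *PILRB* fall outside the rule for named genes and were chosen after their values were seen.

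Of 37 further ITAM adaptors and their receptors, 11 were tested, 9 rose and none fell (median log2 fold change 0.57). *TREM2*, which signals through TYROBP, had 1.33 and 1.43 FPKM in sh-NC cells and 6.23 and 6.91 FPKM in sh-CEBPG#3 cells (log2 fold change 1.67, adjusted p = 2.10e-06 in limma). *CD300C* and *SIGLEC14* rose by 0.91 each. The most abundant gene of the list was *HCST* (DAP10), an adaptor without an ITAM, with 55.6 to 69.7 FPKM and a rise of 0.24 on the log2 scale (adjusted p = 0.0296 by limma). That call was lost without sh-CEBPG#3 replicate 1 (log2 fold change 0.16, adjusted p = 0.306 in limma), and with the replicate block (adjusted p = 0.101), without the trend, without the filter and over single rows.

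Of 29 further ITIM receptors, 10 were tested, 7 rose and 1 fell (median log2 fold change 0.44). *PECAM1* (CD31) rose from 18.5 and 21.8 FPKM to 43.4 and 40.8 FPKM (log2 fold change 1.03), *SIGLEC10* by 0.92 and *SIRPA*, the CD47 receptor, by 0.64. *LAIR1*, a collagen receptor, was the gene that fell (log2 fold change -0.59, adjusted p = 0.0106 in limma), and it had 6.98 and 10.7 FPKM in sh-NC cells and 5.31 and 5.51 FPKM in sh-CEBPG#3 cells. Without sh-NC replicate 2 its log2 fold change was -0.32 (adjusted p = 0.0510 in limma), and the call was also lost without the filter (adjusted p = 0.0965) and over single rows (log2 fold change -0.16, adjusted p = 0.804).

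Genes downstream of the motifs moved both ways, as did the whole table, where 18.5% of all genes tested rose and 23.8% fell. Of 25 ITAM signalling genes, 24 were tested, 8 rose and 7 fell. Their median log2 fold change was 0.08, against 0.77 for the 8 tested members, adaptors included, and -0.04 for all genes tested. The Src-family kinase *FGR* (0.96) and the kinase *TEC* (0.51) were among those that rose, *GRB2*, an adaptor with the highest level of the list, rose by 0.39, whereas phospholipase *PLCG1* (-0.97), the adaptor *LAT* (-0.63) and the exchange factor *VAV2* (-0.48) fell most. *SYK*, named after its values were seen because it binds the ITAM, had 26.8 and 30.9 FPKM in sh-NC cells and 23.8 and 21.2 FPKM in sh-CEBPG#3 cells (log2 fold change -0.34, adjusted p = 0.0138 in limma). Without sh-CEBPG#3 replicate 1, 5 genes of this list rose in place of 8.

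Of 11 genes of ITIM signalling and other brakes, 3 rose and 1 fell, against 18.5% and 23.8% of all genes tested. Their median log2 fold change was 0.03. *CBL*, a ubiquitin ligase, rose by 0.46 (adjusted p = 0.0023 in limma), *DOK3* by 0.25 and the SHP-1 gene *PTPN6* by 0.23, while *CSK*, the kinase that restrains the Src family, fell (-0.23, adjusted p = 0.0329). The calls for *DOK3*, *PTPN6* and *CSK* were lost without sh-CEBPG#3 replicate 1 and without sh-CEBPG#3 replicate 2, *DOK3* also without sh-NC replicate 1 and *CSK* without sh-NC replicate 2, at adjusted p from 0.0952 to 0.235 in limma.

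Monocyte and macrophage maturation markers moved in the same libraries. Of 13 markers, 12 were listed and 7 tested, of which 4 rose and 1 fell, and their summed level was 201 and 232 FPKM in sh-NC cells and 341 and 325 FPKM in sh-CEBPG#3 cells. *CTSD* (log2 fold change 1.44), *CD68* (1.14) and *CYBB* (1.12) rose most and *S100A9* fell (-0.70). Of the defining markers, *MRC1* was not listed, *CD14* reached 0.187 FPKM in sh-NC cells and 1.09 FPKM in sh-CEBPG#3 cells, and *CD163* reached 0.0121 and 0.244 FPKM. The part of these markers in the rise of the receptors was not tested.

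**Figure D4:**
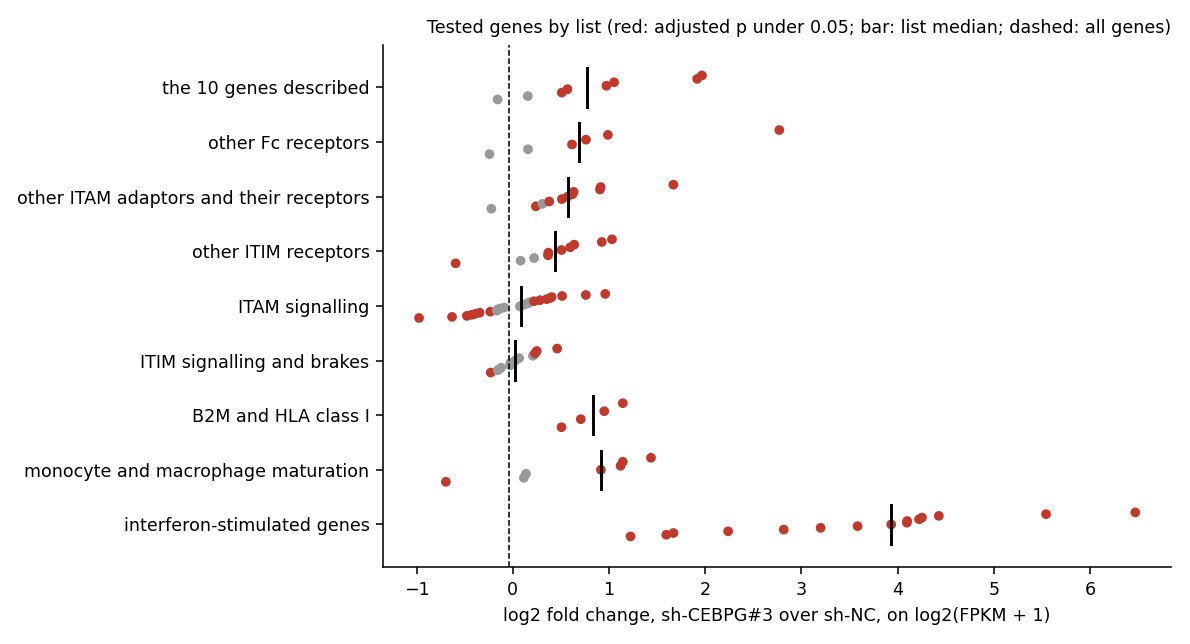
Log2 fold change (sh-CEBPG#3 over sh-NC) of every tested gene in the 10 genes described and in 8 surrounding lists, red where the adjusted p was under 0.05, with each list's median (black bar) and the median of all genes tested (dashed line, -0.04). Receptor lists lie mostly to the right, the signalling lists lie on both sides, and the interferon-stimulated genes reach 6.47.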

How the data were processed

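RNA-seq libraries of MV4-11 cells (2 sh-NC, 2 sh-CEBPG#3) were made with a TruSeq RNA kit, and the submitters' processing notes name HISAT2 2.0.5 and hg38. The authors deposited FPKM per RefSeq transcript. The program that computed FPKM, its use of strand and its handling of reads shared by gene copies are not given in the sources used here. Reads could not be recovered from the values (579 low genes below 0.06 FPKM; 1.38% shared the commonest ratio between libraries), so depth is unknown and no count test was run. Of 28780 rows, 199 had no value and 164 no symbol.

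FPKM of rows with one symbol were summed, and genes averaging 0.5 FPKM or more across the 4 libraries were compared as log2(FPKM + 1) with limma 3.58.1 (R 4.3.3, trended eBayes, Benjamini-Hochberg over 12142 genes). On simulated data with 200 genes changed, limma called 50 of 50 genes at a log2 change of 2, 42 of 50 at 1, and 3 of 11942 unchanged genes. The changed genes were drawn from those with a mean log2(FPKM + 1) above 2, so the simulation says nothing about lower genes. It also changed far fewer genes than were called in the data (2244 higher and 2884 lower). Fold changes, ratios and figures come from these values. Other pseudocounts, filters, scalings, a fit over single transcripts, a fit without trend, a replicate block and leaving out each library were alternatives. The 10 genes and all lists were chosen with earlier results of these data known. Named genes were the 10 members, *CEBPG* and, from each list around them, the 3 genes with the largest rise, the 3 with the largest fall at an adjusted p under 0.05, and the gene with the highest mean, with exceptions stated. Some genes that this rule names are not reported here. Without a protein table, ITAM and ITIM motifs were sought in translated coding sequences of GENCODE v44. Promoters came from a RefSeq table of GRCh38.p14.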

Additional observations from a re-analysis of the deposited data

How the results depend on the processing

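Of the 8 tested members, every direction was kept under the alternatives run. With single RefSeq rows standing for genes, 3 of the 10 rose in place of 6, since *FCGR1A* (adjusted p = 0.0692), *FCGRT* (adjusted p = 0.0779) and *LILRB4* (log2 fold change 0.18, adjusted p = 0.679) lost the limma call, while *FCGR2A* gained it with quantile normalization (adjusted p = 0.0302). The same fit over rows gave 640 genes higher and 645 lower over the table. By the study's threshold, pseudocounts of 0.1 and 0.01 gave 490 and 509 genes higher and 337 and 373 lower. Deviations of same-numbered libraries from their group means had a correlation of 0.0606 over genes, which cannot tell whether those libraries were handled together. The fit with the replicate block called 6 of the 10 genes, and left 1 gene higher and 0 lower among the ITIM signalling genes.

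For the lists, the fit over rows gave 2 ITAM adaptors and receptors, 3 ITIM receptors, 1 ITAM signalling gene and 0 ITIM signalling genes higher, and 0 ITIM receptors, 0 ITAM signalling and 0 ITIM signalling genes lower. Without a filter, 8 other Fc receptors and 8 maturation markers were higher and 0 ITIM receptors and 0 ITIM signalling genes lower. Without the trend, 1 ITIM signalling gene was higher and 0 lower, and equal totals or quantile normalization gave 2 lower. Leaving out a library, which assumes that the lone library varies like the other group, gave 0 to 1 lower among other Fc receptors, other ITAM receptors and ITIM receptors. It gave 5 to 8 ITAM signalling genes higher, and 1 to 3 ITIM signalling genes higher and 0 to 1 lower. A single hairpin, 2 libraries per group and unknown depth limit all values.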
